A study of Homo sapiens with 12 samples.

Results

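The 33 genes described here are the transcription factor ATF4, a group of its targets, and the sensors, chaperones and degradation factors of the unfolded protein response. They were listed by symbol out of 27064 gene symbols in the count tables, with earlier results of these data known. All 33 had a row in both tables and passed the filter on low counts in both cell lines. They were measured by poly(A) RNA sequencing in NCI-H226 (H226), a mesothelioma line, and in ACHN, a kidney cancer line, which the submitters describe as NF2-deficient. NF2 encodes merlin, which acts upstream in the Hippo pathway. Control and treated cells share this deficiency. Each line was kept overnight with 100 nM SWTX-143, which inhibits the TEAD transcription factors irreversibly, or with DMSO, the vehicle. There were 3 libraries in each of the 4 groups, 12 in all. Each tumor type is represented by 1 line, and the sources used here do not say whether the replicates were separate cultures, so p-values measure only the spread between these libraries, which may be technical.

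The endoplasmic reticulum (ER) folds secreted and membrane proteins, and 3 sensors in its membrane respond when unfolded proteins accumulate: PERK (gene EIF2AK3), IRE1 (ERN1) and ATF6. PERK phosphorylates the initiation factor eIF2, which lowers general protein synthesis while the mRNA of ATF4 is translated more. IRE1 splices the mRNA of XBP1, ATF6 is cut to release a transcription factor, and spliced XBP1 and cut ATF6 switch on ER chaperones and degradation genes. ATF4 is also induced through other eIF2 kinases, for instance when amino acids are scarce, and its control is largely translational, so the level of its mRNA is not a measure of its protein. Splicing of XBP1, cleavage of ATF6 and phosphorylation of eIF2 cannot be read from gene counts.

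The upstream sequences are shown because the module joins genes known to answer to different response elements. In the RefSeq promoter table (GRCh38.p14), 31 of the 33 genes had an entry, all but PDIA3 and NUPR1, and the 250 bases before each start were searched on both strands. The ER stress response element, bound by ATF6 and XBP1, was searched as CCAAT, then 9 bases of any kind, then CCACG. It was found in 6 of 31 genes (19.4%), against 26 of all 35116 promoters (0.074%). The matches follow, written in the direction of the motif, with the CCAAT and CCACG ends in capitals and the spacer in lower case. Those of XBP1, HSPA5, CANX and the upstream match of HSP90B1 lay on the strand of the gene, and those of CALR, CRELD2 and the downstream match of HSP90B1 on the opposite strand.
XBP1: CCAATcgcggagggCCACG
HSPA5: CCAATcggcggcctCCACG
HSP90B1 upstream match: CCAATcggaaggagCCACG
HSP90B1 downstream match: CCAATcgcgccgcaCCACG
CALR: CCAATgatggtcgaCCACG
CANX: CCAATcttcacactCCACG
CRELD2: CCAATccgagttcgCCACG

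The core of the C/EBP-ATF response element, bound by ATF4 with C/EBP partners and searched as TGATGNAA, was found in ASNS, CHAC1 and HERPUD1. That is 3 of 31 genes (9.68%), against 1104 of all promoters (3.14%). The core of the UPR element, searched as TGACGTGG, was found in HYOU1 alone, 1 of 31 genes (3.23%), against 0.612% of all promoters. The searched motifs do not overlap one another in these windows. Other forms of these elements, such as CCAAT and CCACG at another spacing or order, were not searched. A match is a description of the letters, and a window without one says nothing about the factor. The windows of 3 genes are given whole, since HSPA5 and HERPUD1 differed between the lines and ASNS is the textbook ATF4 target. The window of HSPA5 is chr9:125241344-125241593 on the minus strand, with the ER stress response element in capitals. The window of HERPUD1 is chr16:56931892-56932141 on the plus strand, with the C/EBP-ATF core, here read on the opposite strand, in capitals. It also holds attgggccacg, left in lower case because ATTGG and CCACG at that spacing were not searched. The window of ASNS is chr7:97872409-97872658 on the minus strand, with the same core in capitals. Each runs 5′ to 3′ in the direction of its gene and ends at the base before the start.
HSPA5: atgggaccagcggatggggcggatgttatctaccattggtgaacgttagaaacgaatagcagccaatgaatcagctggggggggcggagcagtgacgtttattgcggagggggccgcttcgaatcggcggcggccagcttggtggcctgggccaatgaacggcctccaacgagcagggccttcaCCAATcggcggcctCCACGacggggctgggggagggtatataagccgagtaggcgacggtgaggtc
HERPUD1: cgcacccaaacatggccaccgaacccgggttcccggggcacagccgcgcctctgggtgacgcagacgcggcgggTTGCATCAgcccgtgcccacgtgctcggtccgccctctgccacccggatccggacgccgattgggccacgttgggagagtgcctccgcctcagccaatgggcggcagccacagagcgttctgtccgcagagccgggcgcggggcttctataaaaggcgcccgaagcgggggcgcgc
ASNS: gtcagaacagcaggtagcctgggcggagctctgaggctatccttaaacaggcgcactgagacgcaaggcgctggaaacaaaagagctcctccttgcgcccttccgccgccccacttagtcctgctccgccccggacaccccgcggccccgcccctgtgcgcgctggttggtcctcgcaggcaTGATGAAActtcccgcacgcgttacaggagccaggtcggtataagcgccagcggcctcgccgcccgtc

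The libraries held 9690980 to 11262663 counts in H226 and 10113810 to 11206457 in ACHN, and the biological coefficient of variation was 3.98% and 3.23%. Values are in CPM, each library's counts relative to its total count after TMM scaling over all 12 libraries. The TEAD targets CTGF and CYR61 were lower in all treated libraries, with log2 fold changes of -2.53 ± 0.08 and -1.41 ± 0.04 in H226 and -2.39 ± 0.06 and -1.28 ± 0.04 in ACHN. The sum of 8 mesothelial markers was 3184 to 3317 CPM in H226 under DMSO and 3714 to 3947 CPM under SWTX-143, and 186 to 188 CPM and 153 to 161 CPM in ACHN, where WT1, ITLN1 and HP were at 0. The sum of 8 kidney epithelial markers was 731 to 760 CPM in ACHN under DMSO and 754 to 812 CPM under SWTX-143 (EMX2 at 0), and 8.70 to 10.4 CPM and 16.3 to 18.3 CPM in H226 (EMX2 and KCNJ16 at 0). The sum of 12 immune, endothelial and fibroblast markers was 1419 to 1440 CPM and 1392 to 1445 CPM in H226 and 50.9 to 55.0 CPM and 65.4 to 71.9 CPM in ACHN, with the pan-leukocyte gene PTPRC at 0 in every group. Of these markers, only CD68, CD14, KDR, PDGFRB and COL1A1 averaged over 1 CPM in H226, and only CD68, PDGFRB and COL1A1 in ACHN. The part of the shifts in these marker sums in the results below was not tested. In bulk RNA, fewer cells of one state and less RNA per cell cannot be told apart.

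The members did not move as a unit. The rises with the smallest adjusted p were in H226, in the stress protein NUPR1, the sensor gene ERN1, the degradation factor HERPUD1 and the transcription factor CEBPB. The falls with the smallest adjusted p were in ACHN, in the secreted protein STC2, the receptor VLDLR and the chaperone gene HSPA5. By size, the fall of CEBPG in H226 (log2 fold change -0.69) exceeded that of HSPA5 in ACHN (-0.25). In H226, SWTX-143 raised 9 of the 33 genes and lowered 6, and 18 were not called. Among all genes tested in H226, 19% were called higher and 21.6% lower, 40.7% in all, so the 45.5% of members called was close to the background. The median log2 fold change of the members was 0.06, against -0.00 over all genes. In ACHN, 1 gene was called higher, 11 were called lower and 21 were not called. Among all genes tested in ACHN, 8.43% were called higher and 9.37% lower, 17.8% in all, against 36.4% of members. The median of the members was -0.09, against 0.00 over all genes. Without regard to sign, the median log2 fold change in ACHN was 0.103 for members and 0.104 for all genes. In H226 these medians were 0.127 and 0.180. The higher share called in ACHN thus did not go with larger effects. Calls are from edgeR's quasi-likelihood test with Benjamini-Hochberg adjustment over all genes tested, at a limit of 0.05, and errors of log2 fold changes are standard errors. The H226 split depended on the scaling and on the libraries. With upper-quartile scaling 17 members were called higher and 4 lower, with library size alone 17 and 5, and without treated replicate 3 it was 14 and 6. Under upper-quartile scaling all genes shifted in the same way, from 2567 higher and 2919 lower to 3283 and 2324 in H226. In ACHN they went from 1137 and 1264 to 1450 and 1028. Without treated replicate 3 the all-gene split in H226 was 2539 and 2826, without such a shift.

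**Figure D1:**
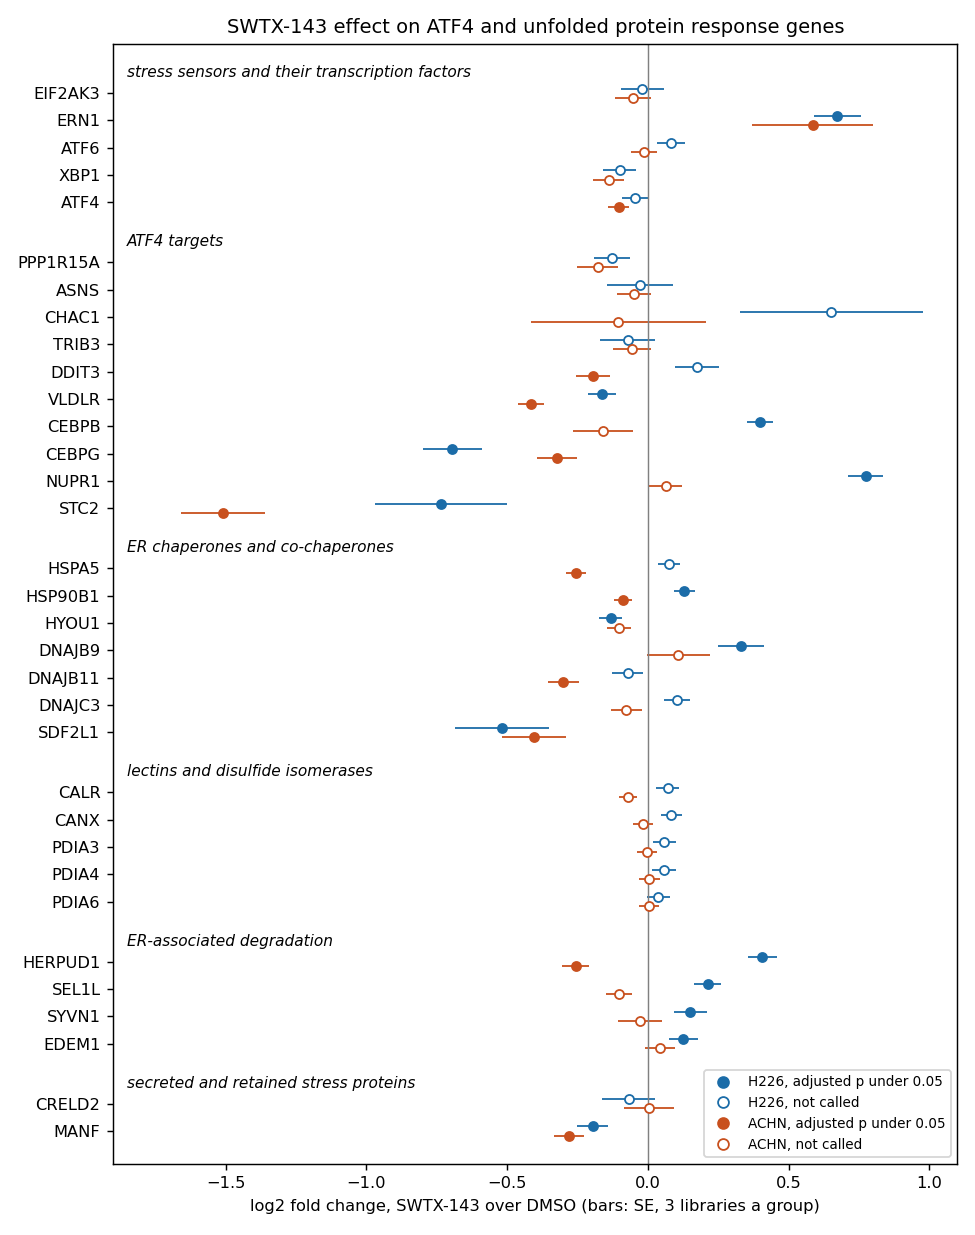
Log2 fold change of SWTX-143 over DMSO for each of the 33 genes, grouped by role, in H226 and ACHN (points, edgeR estimate, filled where the adjusted p is under 0.05 and open otherwise; bars, standard error; 3 libraries per group). The degradation factors sit to the right of 0 in H226. Of the chaperones, HSPA5, HSP90B1 and DNAJB11 are called lower in ACHN, and SDF2L1 is called lower in both lines. The lectins and disulfide isomerases stay near 0 in both lines.

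Of the sensors and their transcription factors, ERN1 was the member called higher in both lines. ERN1 encodes IRE1, the kinase and endonuclease that splices XBP1 mRNA. In H226 it stood at 17.9, 19.7 and 17.6 CPM under DMSO and 30.7, 27.5 and 30.6 CPM under SWTX-143. The treated libraries all lay above the controls, with a log2 fold change of 0.67 ± 0.08 (adjusted p = 2.27e-09). In ACHN the gene was scarce, at 2.29, 2.51 and 2.08 CPM under DMSO and 3.46, 3.29 and 3.67 CPM under SWTX-143. The groups did not overlap there either, and the log2 fold change was 0.59 ± 0.21 (adjusted p = 0.0486), a call that was lost in 9 of the 12 alternatives that tested it, among them every fit without 1 of the 6 libraries (adjusted p up to 0.255). The effects in the lines differed by 0.08 ± 0.23 (95% confidence interval -0.38 to 0.55; adjusted p = 0.893).

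ATF4, the transcription factor at the center of the integrated stress response, was at 119, 113 and 119.7 CPM under DMSO and 114, 115 and 114 CPM under SWTX-143 in H226, where the groups overlapped (log2 fold change -0.04 ± 0.05; adjusted p = 0.487). In ACHN it went from 271, 286 and 272 CPM to 259.9, 268 and 252 CPM, with every treated library below every control. That fall, a log2 fold change of -0.10 ± 0.04 (adjusted p = 0.0462), was close to the limit and was lost in 10 of 13 alternatives, among them both other scalings and the fits without DMSO replicate 2 or 3 or treated replicate 1 or 3 (adjusted p up to 0.28). The other 3 genes of this group were not called in either line. EIF2AK3, which encodes PERK, had log2 fold changes of -0.02 ± 0.08 in H226 and -0.05 ± 0.06 in ACHN. ATF6 had 0.08 ± 0.05 and -0.02 ± 0.05. XBP1, whose total mRNA is counted here with spliced and unspliced forms together, had -0.10 ± 0.06 and -0.14 ± 0.06. In ACHN XBP1 was at 68.4, 64.1 and 63.4 CPM under DMSO and 58.3, 62.8 and 58.8 CPM under SWTX-143, without overlap (adjusted p = 0.0757).

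The 10 ATF4 targets gave 2 rises and 3 falls in H226 and 4 falls in ACHN. Among all tested genes, 19% rose and 21.6% fell in H226, and 9.37% fell in ACHN. The groups by role are small and were drawn after the values were seen. NUPR1, a small stress-induced chromatin protein, was at 38.3, 39.4 and 42.2 CPM under DMSO and 69.8, 72.7 and 63.5 CPM under SWTX-143 in H226. All 3 treated libraries lay well above the controls, and the log2 fold change was 0.77 ± 0.06 (adjusted p = 1.8e-15), the largest rise among the members. In ACHN NUPR1 was at 55.7, 62.02 and 54.9 CPM and 59.5, 59.9 and 62.6 CPM. Those groups overlapped (log2 fold change 0.06 ± 0.06; adjusted p = 0.514).

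CEBPB, a C/EBP transcription factor that pairs with ATF4, rose in H226 from 137, 149 and 146 CPM to 185, 201 and 186 CPM. The groups did not overlap, with a log2 fold change of 0.40 ± 0.05 (adjusted p = 2.51e-10). In ACHN CEBPB was scarce, at 12.7, 13.9 and 12.9 CPM and 11.4, 13.1 and 11.4 CPM, with overlapping groups and a log2 fold change of -0.16 ± 0.11. CEBPB overlaps the antisense gene CEBPB-AS1, which averaged 64.8 CPM under DMSO and 87.5 CPM under SWTX-143 in H226. The strand setting of the counting is not given in the sources used here, so reads of overlapping genes cannot be told apart. Its relative CEBPG, another partner of ATF4, moved the opposite way in H226, from 21.4, 22.1 and 20.7 CPM to 16.3, 11.3 and 12.5 CPM. Every treated library was below the controls, with a log2 fold change of -0.69 ± 0.10 (adjusted p = 2.51e-07). CEBPG also fell in ACHN, from 42.5, 44.2 and 37.4 CPM to 31.6, 35.1 and 33.6 CPM, a log2 fold change of -0.32 ± 0.07 (adjusted p = 0.000441).

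STC2, a secreted glycoprotein, had the largest fall of the members in ACHN. It went from 11.2, 11.3 and 11.5 CPM under DMSO to 3.04, 5.18 and 3.94 CPM under SWTX-143. The groups lay far apart, with a log2 fold change of -1.51 ± 0.15 (adjusted p = 8.98e-12). In H226 STC2 was near the low end of what was tested, at 2.64, 4.57 and 4.19 CPM and 1.78, 2.88 and 2.16 CPM. It was called lower there (log2 fold change -0.73 ± 0.23; adjusted p = 0.0091), although the groups overlapped, and the call was lost without DMSO replicate 2 (adjusted p = 0.0879) or treated replicate 1 (0.0669) and with DESeq2 (0.0746). VLDLR, a lipoprotein receptor, fell in both lines. In ACHN it went from 119, 118 and 118 CPM to 94.6, 84.3 and 90.4 CPM, a log2 fold change of -0.42 ± 0.05 (adjusted p = 7.4e-10). In H226 it went from 116, 114 and 110.1 CPM to 105, 97.4 and 103 CPM, a log2 fold change of -0.16 ± 0.05 (adjusted p = 0.00696). The groups did not overlap in either line, but the H226 call was lost without treated replicate 2 (adjusted p = 0.0693) and with upper-quartile scaling (0.0641).

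DDIT3, which encodes CHOP, the factor linked to cell death under lasting ER stress, was called in ACHN. There it fell from 52.9, 49.3 and 48.8 CPM to 44.5, 44.5 and 44.3 CPM, a log2 fold change of -0.19 ± 0.06 (adjusted p = 0.0166), a call lost without DMSO replicate 1 (adjusted p = 0.0970) or treated replicate 1 (0.0507) and with DESeq2 (0.0921). In H226 it stood at 25.3, 24.1 and 26.4 CPM and 28.1, 29.1 and 28.8 CPM. Those groups did not overlap, but the log2 fold change of 0.17 ± 0.08 missed the limit (adjusted p = 0.0694), which it passed with either other scaling. DDIT3 overlaps MARS, an abundant gene that averaged 167 CPM under DMSO and 124 CPM under SWTX-143 in H226 and 248 CPM and 213 CPM in ACHN. The part of its reads in the DDIT3 counts was not tested.

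The remaining 4 ATF4 targets were not called in either line. ASNS, asparagine synthetase, was at 10.4, 12.3 and 12.01 CPM and 12.4, 10.6 and 11.2 CPM in H226 and at 47.6, 50.9 and 50.2 CPM and 50.4, 49.2 and 45.7 CPM in ACHN. The groups overlapped in both lines, with log2 fold changes of -0.03 ± 0.12 (95% confidence interval -0.26 to 0.21) and -0.05 ± 0.06 (-0.17 to 0.07). TRIB3, a pseudokinase that restrains ATF4 signaling, had log2 fold changes of -0.07 ± 0.10 and -0.06 ± 0.07. PPP1R15A, which encodes GADD34, the subunit that directs dephosphorylation of eIF2, had -0.13 ± 0.06 and -0.18 ± 0.07. CHAC1, an enzyme that degrades glutathione, was too scarce for a firm value, at 1.79, 1.05 and 0.551 CPM under DMSO and 1.68, 1.77 and 2.06 CPM under SWTX-143 in H226 (log2 fold change 0.65 ± 0.32; adjusted p = 0.105). In ACHN its log2 fold change was -0.10 ± 0.31.

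**Figure D2:**
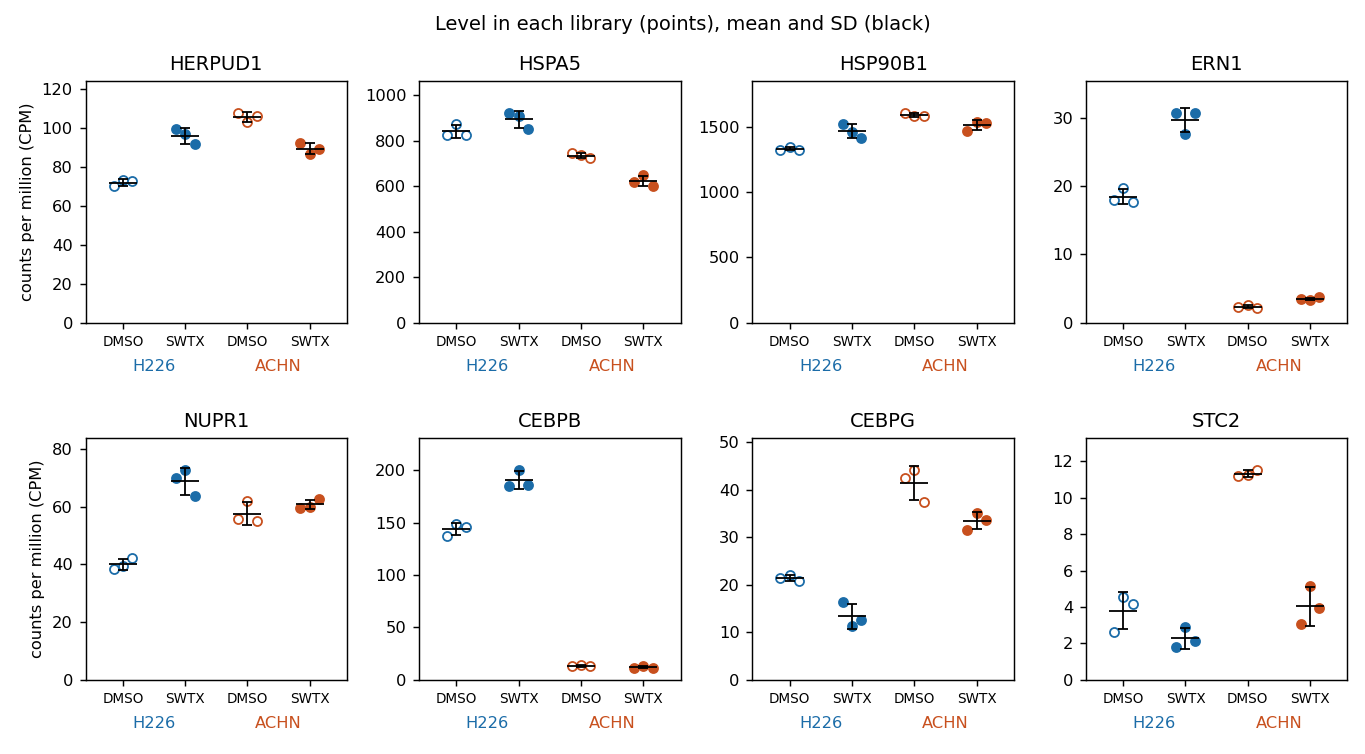
CPM of 8 of the genes in each of the 12 libraries (points) with the group mean and SD (black lines), for H226 and ACHN under DMSO and SWTX-143; each panel starts at 0, and the genes were chosen after their values were seen. HERPUD1 lies higher in all treated H226 libraries and lower in all treated ACHN libraries.

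Of the 7 ER chaperones and co-chaperones, 2 rose and 2 fell in H226, and 4 fell in ACHN. The shares over all tested genes were 19% higher and 21.6% lower in H226, and 9.37% lower in ACHN. HSPA5 encodes BiP, the main ER chaperone and the protein that holds the sensors inactive. In ACHN it fell from 745, 737 and 723 CPM to 617, 649 and 603 CPM. Every treated library was below the controls, with a log2 fold change of -0.25 ± 0.03 (adjusted p = 6.78e-08). In H226 HSPA5 was at 823, 875 and 826 CPM and 924, 907 and 849 CPM, with overlapping groups (log2 fold change 0.08 ± 0.04; adjusted p = 0.116), and was called higher there with either other scaling and without treated replicate 3.

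HSP90B1, which encodes the ER chaperone GRP94, rose in H226 from 1324, 1345 and 1326 CPM to 1526, 1458 and 1416 CPM, a log2 fold change of 0.13 ± 0.04 (adjusted p = 0.00417, and 0.0690 without treated replicate 1). In ACHN it was called lower, from 1610.2, 1587 and 1583 CPM to 1470.3, 1541 and 1531 CPM (log2 fold change -0.09 ± 0.03; adjusted p = 0.0476), a call lost in 10 of 13 alternatives, among them both other scalings and every fit without 1 library except that without treated replicate 3 (adjusted p up to 0.257). The groups overlapped in neither line. DNAJB11, a BiP co-chaperone, fell in ACHN from 67.98, 66.6 and 65.8 CPM to 53.2, 58.1 and 53.5 CPM, a log2 fold change of -0.30 ± 0.06 (adjusted p = 4.35e-05). In H226 its log2 fold change was -0.07 ± 0.05, with overlapping groups.

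DNAJB9, a co-chaperone of BiP that acts on IRE1, rose in H226 from 35.98, 30.3 and 33.7 CPM to 39.8, 48.4 and 38.2 CPM, with no overlap and a log2 fold change of 0.33 ± 0.08 (adjusted p = 0.0012). It overlaps THAP5 and PNPLA8, which averaged 33.3 CPM and 22.0 CPM in H226 under DMSO, and 34.1 CPM and 27.0 CPM under SWTX-143. In ACHN its log2 fold change was 0.11 ± 0.11. SDF2L1, a partner of the BiP machinery, was the chaperone gene called lower in both lines. It went from 6.14, 6.95 and 5.40 CPM to 4.15, 4.47 and 4.40 CPM in H226, a log2 fold change of -0.52 ± 0.17 (adjusted p = 0.00971, but 0.0764 without DMSO replicate 2 and 0.0898 with DESeq2). In ACHN it went from 13.5, 13.3 and 11.5 CPM to 10.05, 9.97 and 9.19 CPM, a log2 fold change of -0.40 ± 0.11 (adjusted p = 0.00771, but 0.0706 with DESeq2). HYOU1, the exchange factor of BiP, fell in H226 from 346, 358 and 366 CPM to 338, 325 and 320.3 CPM (log2 fold change -0.13 ± 0.04; adjusted p = 0.00752, but 0.0727 without DMSO replicate 3 and 0.104 with upper-quartile scaling) and had -0.10 ± 0.04 in ACHN (adjusted p = 0.0882). DNAJC3, an ER co-chaperone, was not called, with 0.10 ± 0.05 in H226, where 5 of 13 alternatives called it higher, and -0.08 ± 0.06 in ACHN.

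The lectin chaperones and disulfide isomerases, 5 abundant genes, gave no call in either line. Of all tested genes, 40.7% were called in H226 and 17.8% in ACHN. CALR (calreticulin) averaged 1292 ± 62.2 CPM under DMSO and 1365 ± 56.1 CPM under SWTX-143 in H226 (mean ± SD, n = 3), and 1340.0 ± 10.4 CPM and 1291 ± 19.9 CPM in ACHN. CANX (calnexin) averaged 1915 ± 23.9 CPM and 2042 ± 103 CPM in H226 and 855 ± 26.02 CPM and 854 ± 33.3 CPM in ACHN. Over CALR, CANX, PDIA3, PDIA4 and PDIA6 the log2 fold changes lay between 0.04 and 0.08 in H226, and between -0.07 and 0.01 in ACHN. At these levels the intervals were narrow: the unadjusted 95% interval of CALR was -0.01 to 0.15 in H226 and -0.13 to -0.00 in ACHN. CALR, CANX, PDIA3 and PDIA4 were called higher in H226 with either other scaling and without treated replicate 3. PDIA6 overlaps ATP6V1C2, which averaged 139 CPM in H226 and 194 CPM in ACHN under DMSO. PDIA3 has a copy by symbol, PDIA3P1, at about 5 CPM, and reads of PDIA3 could be split between the copies.

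ER-associated degradation factors pull misfolded proteins out of the ER for the proteasome, and the 4 among the members rose in H226, where 19% of all tested genes did. Of 19 other tested genes of this process, 5 rose and 4 fell in H226. HERPUD1, a membrane scaffold of the degradation complex, went from 70.1, 73.1 and 72.9 CPM to 99.8, 96.8 and 91.8 CPM in H226. Its groups lay apart, with a log2 fold change of 0.41 ± 0.05 (adjusted p = 5.09e-09). In ACHN it moved the opposite way, from 108, 103 and 106 CPM to 92.3, 86.7 and 89.2 CPM, again without overlap (log2 fold change -0.26 ± 0.05; adjusted p = 3.88e-05).

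SEL1L, the adaptor of the ubiquitin ligase HRD1, rose in H226 from 119.7, 114 and 120.1 CPM to 137, 136 and 140.1 CPM, a log2 fold change of 0.21 ± 0.05 (adjusted p = 0.000221). In ACHN it was at 117, 116 and 114 CPM and 104, 113 and 109 CPM (log2 fold change -0.10 ± 0.05; adjusted p = 0.113). SYVN1, which encodes HRD1 itself, and EDEM1, which trims glycans of misfolded proteins, rose in H226 by smaller amounts. SYVN1 went from 52.03, 56.6 and 55.96 CPM to 63.5, 61.1 and 59.3 CPM and EDEM1 from 107, 97.5 and 95.2 CPM to 109, 107 and 113 CPM, with log2 fold changes of 0.15 ± 0.06 (adjusted p = 0.0341) and 0.13 ± 0.05 (adjusted p = 0.0451). Their treated libraries lay above the controls, but the call of SYVN1 was lost in 5 of 13 alternatives, those without DMSO replicate 1 or treated replicate 1 or 2 among them (adjusted p up to 0.178), and that of EDEM1 in 7, those without any 1 of the libraries other than DMSO replicate 1 among them (adjusted p up to 0.206). In ACHN neither was called, with -0.03 ± 0.08 for SYVN1 and 0.04 ± 0.05 for EDEM1. SYVN1 overlaps FAU, at 257 CPM in H226 under DMSO, and MRPL49.

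Of the last pair of members, MANF, a secreted ER protein that protects stressed cells, fell in both lines. It went from 72.2, 77.2 and 75.1 CPM to 63.2, 70.6 and 63.3 CPM in H226, a log2 fold change of -0.20 ± 0.06 (adjusted p = 0.00379). In ACHN it went from 77.3, 76.3 and 79.3 CPM to 62.4, 69.8 and 61.9 CPM, a log2 fold change of -0.28 ± 0.05 (adjusted p = 7.87e-05). CRELD2, an ER disulfide isomerase induced by stress, was not called, with -0.07 ± 0.10 and 0.00 ± 0.09, and it overlaps ALG12.

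The difference between the lines was tested directly, as the effect in H226 less that in ACHN, in 1 fit of all 12 libraries. Of the 33 members, 9 had a higher effect in H226, 1 had a lower one and 23 were not called. Among all genes in that fit, 5.89% were called higher and 9.7% lower, 15.6% in all, against 30.3% of members. Without regard to sign, the median difference was 0.122 for members and 0.179 for all genes, so the members did not differ by larger amounts. The largest called differences were those of NUPR1, 0.70 ± 0.09 (95% confidence interval 0.53 to 0.88; adjusted p = 4.64e-10), and HERPUD1, 0.66 ± 0.07 (0.51 to 0.80; adjusted p = 1.03e-11). CEBPB followed with 0.55 ± 0.11 (adjusted p = 8.35e-05). Among the chaperones, HSPA5 differed by 0.32 ± 0.05 (adjusted p = 3.34e-06), HSP90B1 by 0.21 ± 0.05 and DNAJB11 by 0.22 ± 0.08. The others with a higher effect in H226 were DDIT3, SEL1L and VLDLR. Higher and lower refer here to signed values and not to the strength of the response. VLDLR had -0.16 in H226 and -0.42 in ACHN, and DNAJB11 -0.07 and -0.30. CEBPG fell more in H226, -0.69 against -0.32. CEBPG was the member with the lower effect in H226, -0.38 ± 0.13 (adjusted p = 0.0283), a call lost in 10 of 18 alternatives, among them those without any 1 of the H226 libraries other than treated replicate 1, and those without ACHN DMSO replicate 3 or treated replicate 2. The call of DNAJB11 was lost in 8 of 18, among them those without any 1 of the ACHN libraries other than treated replicate 2, and those without replicate 1 of either H226 group. That of VLDLR was lost without ACHN treated replicate 2 (adjusted p = 0.0505). The estimate for STC2 was larger than any of these, 0.77 ± 0.29, but missed the limit (adjusted p = 0.0567). It passed in 8 of 18 alternatives, upper-quartile scaling, the replicate block and the fits without H226 DMSO replicate 2 or 3, H226 treated replicate 1 or ACHN treated replicate 2 among them (adjusted p from 0.017 to 0.258 over all 18).

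Set side by side, 1 member rose in both lines (ERN1), 5 fell in both (VLDLR, CEBPG, STC2, SDF2L1 and MANF), and 2 rose in H226 and fell in ACHN (HERPUD1 and HSP90B1). There were 14 members called in neither. The shares of all genes in these classes were not counted, so these counts have no background beside them. Of the members called in both lines, only CEBPG, MANF and HERPUD1 kept both calls in every alternative. The effects had the same sign in 19 of 33 members (57.6%), against 66.8% of the 12333 genes tested in both lines. Across the 33 members Pearson's r of the log2 fold changes was 0.66 and Spearman's rho 0.50, against 0.45 and 0.44 over the 12333 genes. Without STC2 the values of the other 32 members were 0.59 and 0.46. These are descriptions across genes of the same libraries.

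**Figure D3:**
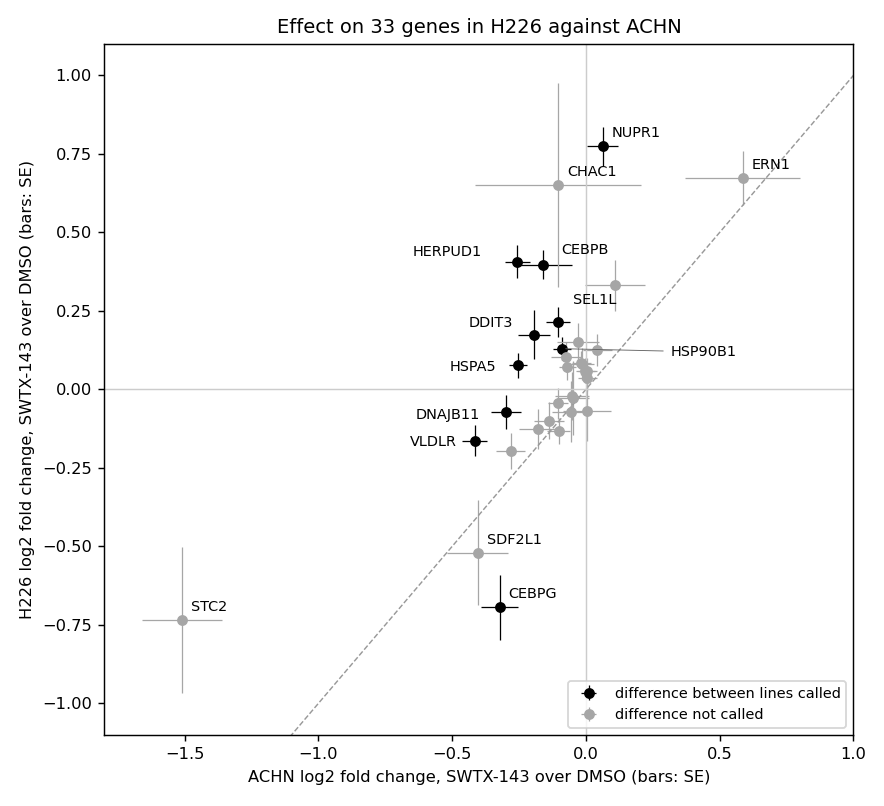
Log2 fold change in H226 against that in ACHN for the 33 genes (points, edgeR estimate; bars, standard error); the dashed line marks equal effects, and black points are those whose difference between the lines was called. Of the black points, HERPUD1, CEBPB, SEL1L, DDIT3, HSP90B1 and HSPA5 lie in the upper left, above 0 in H226 and below 0 in ACHN, as do some of the other points.

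Levels of the genes were compared with each other only after division by transcript length. Under DMSO, CALR was the highest member in both lines, at 679 CPM per kilobase in H226 and 704 CPM per kilobase in ACHN. HSP90B1 came next, with 466 and 557 CPM per kilobase. CHAC1, STC2 and ERN1 were the lowest 3 in both lines.

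Beyond the members, 7 lists of related genes were counted in the same fits, to be read against the 40.7% of all tested genes called in H226 and the 17.8% called in ACHN. Of the other ATF4 targets, 6 of 36 tested rose and 19 fell in H226 (69.4% called, median -0.14), and 5 of 37 rose and 11 fell in ACHN (43.2% called, median -0.06). SLC7A5, the large neutral amino acid transporter, fell from a mean of 448 to 165 CPM in H226 (log2 fold change -1.45 ± 0.04; adjusted p = 9.35e-35) and from a mean of 328 to 186 CPM in ACHN (-0.84 ± 0.04; adjusted p = 3.52e-23). Its partner SLC3A2 fell with log2 fold changes of -0.54 ± 0.05 and -0.40 ± 0.05, and MTHFD2, a mitochondrial folate enzyme, with -0.67 ± 0.06 and -0.32 ± 0.04. DDIT4, an inhibitor of mTORC1, rose from a mean of 39.8 to 106 CPM in H226 (log2 fold change 1.40 ± 0.06; adjusted p = 3.41e-27) and from a mean of 93.1 to 123 CPM in ACHN (0.39 ± 0.06; adjusted p = 6.5e-05). SESN2, which senses leucine for mTORC1, rose in ACHN, 0.46 ± 0.06 (adjusted p = 5.19e-09), and had 0.01 ± 0.07 in H226.

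Of the 15 genes for eIF2 kinases and the eIF2 cycle, none rose and 6 fell in H226 (median -0.09), and 2 fell in ACHN (median -0.05), where upper-quartile scaling left 0. The shares called, 40% and 13.3%, were near or below those of all genes. With that scaling 2 of them were called higher in H226. PPP1R15B, the constitutive counterpart of GADD34, fell in H226 (log2 fold change -0.40 ± 0.05; adjusted p = 2.74e-09) and had -0.11 ± 0.05 in ACHN. EIF2AK4, the amino acid sensing kinase GCN2, fell in H226 with a log2 fold change of -0.29 ± 0.06 (adjusted p = 2.47e-05) and had -0.11 ± 0.04 in ACHN (adjusted p = 0.0772). EIF2S1, the subunit phosphorylated by these kinases, fell in H226, with -0.39 ± 0.05 (adjusted p = 2.07e-10), and was called lower in ACHN, with -0.13 ± 0.04 (adjusted p = 0.0398), a call lost in 11 of 13 alternatives, among them every fit without 1 library except that without treated replicate 3 (adjusted p up to 0.217).

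Of 11 ER stress transducers and proteases, 2 rose and 1 fell in H226 (27.3% called, below the share of all genes) and 2 fell in ACHN (18.2%, near it), with medians of 0.05 and 0.01. CREBRF, a regulator of the CREB3 factors, rose in H226 from a mean of 20.9 to 37.3 CPM (log2 fold change 0.82 ± 0.08; adjusted p = 2.35e-12) and had 0.28 ± 0.12 in ACHN (adjusted p = 0.101). Of 20 genes for ER translocation and signal peptide cleavage, 1 rose and 5 fell in H226 (30%) and 2 fell in ACHN (10%), both below the share of all genes (medians -0.05 and -0.02). SSR3, a translocon subunit, fell in both lines, -0.32 ± 0.05 and -0.36 ± 0.04. The degradation genes outside the members had medians of -0.04 in H226, with 47.4% called, and 0.03 in ACHN, with 3 falls among 20 (15%), and the ubiquitin conjugating enzyme UBE2J1 fell in H226, -0.32 ± 0.04, and had 0.13 ± 0.06 in ACHN (adjusted p of the difference = 5.35e-07). The list for oxidative folding and glycan quality control gave 2 rises and 1 fall among 24 tested in H226 (12.5%) and 3 rises and 1 fall among 25 in ACHN (16%), again below the share of all genes (medians 0.02 and -0.03).

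The heat shock genes of the cytosol and mitochondria, a separate chaperone system, had the largest share called lower of the 7 lists. Of 19 tested, 15 fell in H226 (78.9%, median -0.30) and 9 in ACHN (47.4%, median -0.15), and none rose. The counts of falls stayed between 14 and 15 in H226 and between 8 and 11 in ACHN over the alternatives, and with library size alone 1 gene was called higher in ACHN. STIP1, the co-chaperone that links HSP70 to HSP90, fell with log2 fold changes of -0.58 ± 0.04 (adjusted p = 6.09e-17) and -0.20 ± 0.04 (adjusted p = 4.42e-05). HSP90AB1, the constitutive cytosolic HSP90, went from a mean of 2154 to 1673 CPM in H226, -0.37 ± 0.04, and fell in ACHN, -0.16 ± 0.03.

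**Figure D4:**
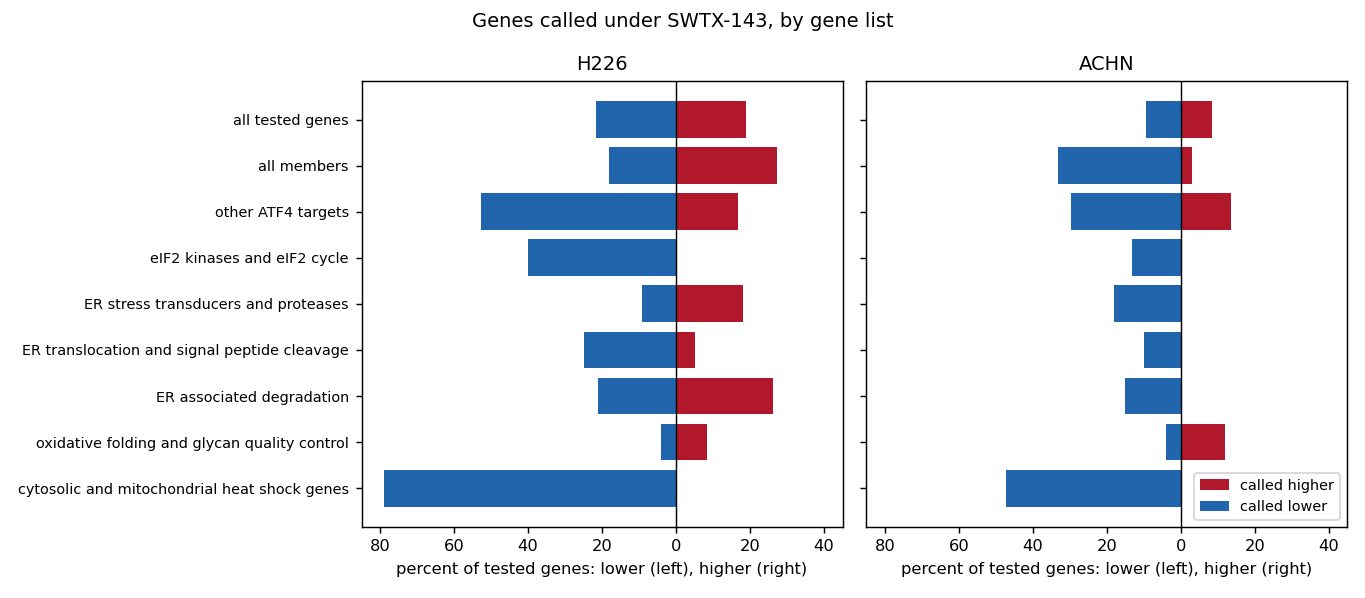
Share of tested genes called higher (right) and lower (left) in each of the 7 lists, in the members and in all tested genes, for H226 and ACHN, in percent. The heat shock list has the longest bars to the left in both lines and none to the right.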

How the data were processed

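Raw read counts per gene symbol, as deposited by the authors, were used for 12 libraries of poly(A) RNA (BGISEQ-500, paired reads, per the labels' protocols), 1 table per line. Alignment with STAR 2.6.1d to hg19 (GRCh37) is listed in the submitters' processing notes, next to cutadapt and FastQC. For the counting program, annotation and strand setting the entry is: not given in the sources used here. Reads of overlapping genes therefore cannot be told apart, and overlaps were looked up for members only.

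Each line was fitted with edgeR 4.0.16 in R 4.3.3: filterByExpr, TMM scaling, robust quasi-likelihood F test and Benjamini-Hochberg adjustment over all tested genes, with calls at 0.05. The difference between lines was a contrast in a joint fit of 12 libraries. Tested genes held at least 99.91% of counts. Printed CPM use TMM sizes over all 12 libraries, while fold changes come from the fits. Standard errors are the fold change divided by the square root of F. Alternatives were DESeq2 1.42.0, other scalings and filters, a replicate block and leaving out each library. No pair of replicates agreed within sampling noise (chi-square per degree of freedom from 1.36 to 3.42, the highest in pairs with treated H226 replicate 3).

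The members, the 7 lists and the tests were chosen with earlier results of these data known. Every member is named, and from each list up to 4 called genes with the smallest p and a mean of at least 5 CPM could be named. EIF2AK4, PPP1R15B and 4 TEAD targets were fixed as well. The grouping by role, the comparison of signs and effects between lines and the use of the longest transcript for lengths (GENCODE 29, GRCh38) were chosen after the values were seen. Promoters come from RefSeq (GRCh38.p14), another build than that of the counts, and no coordinate of the counts was used.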

Additional observations from a re-analysis of the deposited data

Results flagged for a closer look

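For 10 members the effect of SWTX-143 differed between the lines in the test of the difference itself. On the log2 scale, as H226 minus ACHN, the values were 0.70 for NUPR1, 0.66 for HERPUD1, 0.55 for CEBPB, 0.36 for DDIT3, 0.32 for HSPA5, 0.31 for SEL1L, 0.25 for VLDLR, 0.22 for DNAJB11, 0.21 for HSP90B1 and -0.38 for CEBPG. HERPUD1 and HSP90B1 were called in both lines with opposite signs. VLDLR and CEBPG were called lower in both lines and differed in size. NUPR1, CEBPB and SEL1L were called in H226 and not in ACHN, and HSPA5, DNAJB11 and DDIT3 in ACHN and not in H226. What sets the lines apart was not tested, and line and tumor type cannot be told apart with 1 line of each.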

How the results depend on the processing

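Calls of 8 members in H226 (ERN1, CEBPB, NUPR1, HERPUD1, SEL1L, DNAJB9, CEBPG and MANF), 7 in ACHN (STC2, VLDLR, HSPA5, DNAJB11, HERPUD1, CEBPG and MANF) and 7 in the difference between lines (HERPUD1, NUPR1, CEBPB, HSPA5, SEL1L, HSP90B1 and DDIT3) held in every alternative run that tested them. The number of members called higher in H226 was 9 as reported, 17 with upper-quartile scaling, 17 with library size alone and 6 to 14 with 1 library left out. The 1 member called higher in ACHN, ERN1, was reduced to 0 with DESeq2, with no filter on low counts, with a minimum mean of 5 CPM, which left it untested, and with the replicate block, and the range with 1 library left out was 0 to 0. The 1 lower call in the difference between lines, CEBPG, became 0 with upper-quartile scaling, DESeq2 and the minimum of 5 CPM, and 0 to 1 with 1 library left out. The all-gene split of that difference, 863 higher and 1423 lower, became 1159 and 1045 with upper-quartile scaling, 1236 and 1021 with the minimum of 5 CPM and 716 to 1140 higher with 1 library left out. DESeq2 called 3896 genes in H226, 1448 in ACHN and 1482 in the difference, against 5486, 2401 and 2286. The replicate numbers were not used as pairs in the main fits. Deviations of same-numbered libraries correlated by -0.05, 0.16 and 0.10 in H226 and by -0.13, -0.16 and -0.05 in ACHN. Those of differently numbered libraries correlated by -0.25 to 0.15 in H226 and by -0.04 to 0.16 in ACHN. So few values cannot exclude a pairing. With the number as a replicate block, 17 members were called in H226, 9 in ACHN and 11 in the difference, against 15, 12 and 10.

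Of 3248 values of single genes under alternatives, 77 changed sign, 70 of them in members, and in 0 of these was the gene called in that same comparison, as reported or under the alternative. With upper-quartile scaling the log2 value became EIF2AK3 at 0.029, ATF4 at 0.0046, ASNS at 0.021 and CREB3L2 at 0.0099 in H226, ATF6 at 0.0082, CANX at 0.0060 and PDIA3 at 0.021 in ACHN and TRIB3 at 0.022 and HYOU1 at 0.0076 in the difference. With library size alone the log2 value became EIF2AK3 at 0.020, ASNS at 0.012 and CREB3L2 at 0.00061 in H226 and ATF6 at 0.013, CANX at 0.011, PDIA3 at 0.026 and SYVN1 at 0.00026 in ACHN. With a minimum mean of 5 CPM the log2 value became EIF2AK3 at 0.00076 in H226, PDIA3 at 0.00011 in ACHN and TRIB3 at 0.030 and HYOU1 at 0.016 in the difference. In the joint fit of 12 libraries the log2 value became ATF6 at 0.00050 and PDIA3 at 0.014 in ACHN. With no filter on low counts the log2 value became PDIA3 at 0.0017 in ACHN and TRIB3 at 0.011 in the difference. With DESeq2 the log2 value became TRIB3 at 0.0019 in the difference. With 1 library left out, the values in H226 ran for EIF2AK3 from -0.051 to 0.011, ASNS from -0.10 to 0.024, TRIB3 from -0.12 to 0.0081, CRELD2 from -0.14 to 0.019, SESN2 from -0.036 to 0.041, EIF2B5 from -0.16 to 0.0057 and DNAJC10 from -7.8e-05 to 0.042. With 1 library left out, the values in ACHN ran for EIF2AK3 from -0.12 to 0.0012, ATF6 from -0.055 to 0.025, CHAC1 from -0.37 to 0.14, TRIB3 from -0.13 to 0.047, DNAJB9 from -0.0029 to 0.24, CANX from -0.037 to 0.018, PDIA3 from -0.016 to 0.0095, PDIA4 from -0.034 to 0.046, PDIA6 from -0.010 to 0.028, SYVN1 from -0.072 to 0.031, CRELD2 from -0.089 to 0.057 and FKBP14 from -0.0090 to 0.18. With 1 library left out, the values in the difference ran for EIF2AK3 from -0.030 to 0.098, XBP1 from -0.0015 to 0.098, PPP1R15A from -0.015 to 0.14, ASNS from -0.027 to 0.11, TRIB3 from -0.13 to 0.093, HYOU1 from -0.074 to 0.023, SDF2L1 from -0.16 to 0.019 and CRELD2 from -0.13 to 0.054. The cause of these changes was not tested. The fewest counts behind a member were those of CHAC1, 5 to 22 per library in H226 and 9 to 22 in ACHN, which limits the precision of its values.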

Other observations

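Under DMSO the members stood at different levels in the lines, a comparison the study's design does not test, in which line and handling cannot be told apart. CEBPB was 10.9 times and ERN1 8.03 times higher in H226 than in ACHN. DNAJB9, CANX, HYOU1, DNAJC3 and SYVN1, which serve folding and degradation, were 2.03 to 2.63 times higher in H226. HSPA5, DNAJB11, PDIA3, SEL1L and EDEM1 were higher in H226 by less than 2.03 times. The chaperone gene SDF2L1 was lower in H226, at 0.482 times its ACHN level. HSP90B1, CALR, PDIA4, PDIA6 and HERPUD1 were lower by less. The folding and degradation genes thus did not share a direction. ASNS was lower in H226, at 0.233 times its ACHN level, as were STC2 at 0.336 times, TRIB3 at 0.404 times and ATF4 at 0.424 times.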
